A study of Mus musculus with 6 samples.

Results

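Aminoacyl-tRNA synthetases, the enzymes that load each tRNA with its amino acid, were examined together with Aimp1 and Aimp2, scaffold proteins of the cytosolic synthetase complex. The set held 38 genes, chosen by gene symbol: 20 for the enzymes of the cytosol, 16 for the enzymes that work in mitochondria, whose symbols end in 2, and the 2 scaffold genes. A member was measured where a probe set of the array carried its symbol alone, or that symbol with a 1 added, as for Mars. By that rule 34 of the 38 were measured, among 17097 genes in all: 17 cytosolic enzymes, 15 mitochondrial enzymes and both scaffold proteins. Cars, Dars, Tars and Yars2 were not analysed here.

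Each synthetase pairs 1 amino acid with its tRNAs, and the charged tRNA then carries it to the ribosome. Nuclear genes encode both the cytosolic enzymes and the separate enzymes that mitochondria import to translate their own few proteins. For most amino acids the cytosol and the mitochondrion use products of different genes, whereas Gars and Kars supply both compartments. When amino acids run short, uncharged tRNA activates the kinase Gcn2, encoded by Eif2ak4, and the transcription factor Atf4 then raises many cytosolic synthetase genes.

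By the labels, RNA came from mouse fibroblasts derived from embryonic stem cells and grown in high glucose DMEM with serum, glutamine, added non-essential amino acids and β-mercaptoethanol. The WT group and the CD98hc KO group had 3 arrays each, numbered 1, 3 and 5, and the deletion was the only difference named between them. CD98hc, encoded by Slc3a2, carries to the cell surface the transporters that take up branched-chain amino acids (leucine, isoleucine, valine) and aromatic amino acids (phenylalanine, tryptophan, tyrosine), among others. Whether arrays sharing a label stem from separate cultures or clones is not stated in the sources used here, so p-values reflect array-to-array spread alone.

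The targeted gene went against the labels. The only Slc3a2 probe set, whose place relative to the deletion is not known here, read 10.64, 10.67 and 10.51 (log2 level) on WT-labelled arrays, against 11.65, 11.57 and 11.54 on KO-labelled ones (log2 fold change 0.98, SE 0.0747, adjusted p = 0.000125 by limma). All arrays are therefore called WT-labelled or KO-labelled, and each direction below is that of the labels. Whether the labels were exchanged was not tested, and with exchanged labels every higher and lower call below would turn while its size stayed. Markers of pluripotent stem cells were higher on the KO-labelled arrays for 14 of 14 measured genes of 15 listed, with an array mean of 4.84 to 5.00 on the 3 WT-labelled arrays, against 10.78 to 10.99 on the others. Nanog, Zfp42, Dppa2, Lin28a and Fgf4 had WT-labelled means below 4.23, the median of 23 nonspecific control probe sets. Of 14 measured fibroblast markers of 15 listed, 12 were lower on the KO-labelled arrays, Thy1 was higher and Postn was not called, and the array mean lay between 9.07 and 9.76 against 5.10 to 5.30. Cd44 and Col6a1 had KO-labelled means below 4.23. By these markers the KO-labelled arrays did not read as fibroblasts, against their labelled cell type, and read as high in pluripotency genes, with Pou5f1 at 11.99 and Nanog at 10.69 in mean log2 level. The part of these marker differences in the synthetase values was not tested, and in bulk RNA fewer cells of a type cannot be told apart from less RNA per cell. Arrays correlated at 0.991 to 0.994 within a label and 0.911 to 0.920 between labels.

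Most of the mitochondrial enzymes were called, in directions that differed by amino acid. Of the 15 mitochondrial genes, 8 were higher under the KO label and 4 were lower at an adjusted p under 0.05 by limma, against 22.6% of all genes higher and 19.2% lower. All 4 that were lower, Lars2, Iars2, Wars2 and Fars2, serve branched-chain or aromatic amino acids, and all 8 that were higher serve other amino acids. This grouping by amino acid was made with the results known and was not tested. Of the 17 cytosolic genes, 5 were higher and 1 lower. The scaffold genes were not called. Across the whole set, 13 were higher, 5 lower and 16 not called. The median was 0.29 in log2 fold change, against 0.02 over all genes.

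Changes over 2-fold were few. None was found among the cytosolic genes, and in mitochondria Sars2 and Rars2 were over 2-fold higher and Lars2 over 2-fold lower, against 9.27% of all genes over 2-fold higher and 10.1% over 2-fold lower. The values of the labels did not overlap for 19 of 34 members (7 of 17 cytosolic, 12 of 15 mitochondrial), against 51.5% of all genes.

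**Figure D1:**
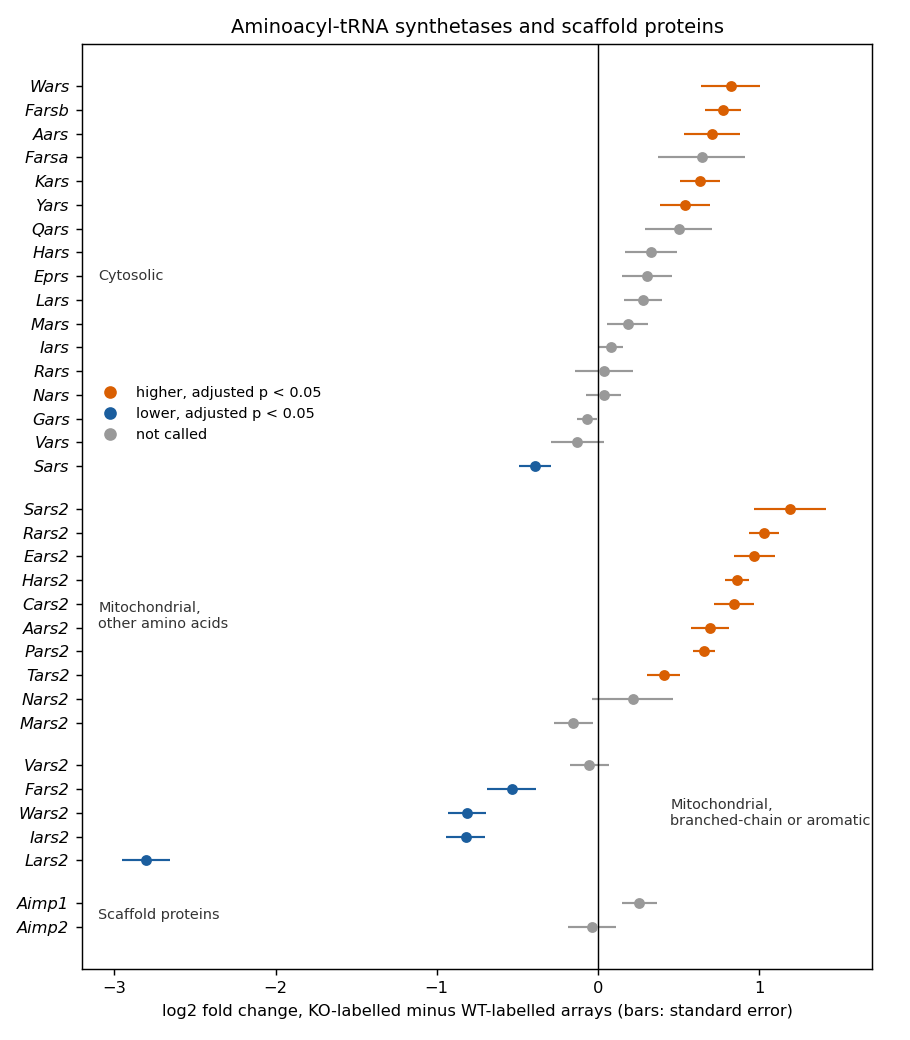
Log2 fold change (KO-labelled minus WT-labelled arrays) on the horizontal axis for each of the 34 measured members, with the standard error as a bar and the call as colour. Lars2 stands at -2.81, the other 33 members lie between -0.82 and 1.19, and the mitochondrial genes called higher and lower fall in different amino acid groups.

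The mitochondrial enzymes for branched-chain and aromatic amino acids numbered 5, of which 4 were lower, against 19.2% of all genes, and Vars2 was not called. Their log2 fold changes had a median of -0.81. As no mitochondrial enzyme for tyrosine was measured, these are the enzymes for leucine, isoleucine, valine, phenylalanine and tryptophan. The promoters of the 4 genes that were lower are shown because these genes moved in the same direction, as the 80 bases before the start, 5′ to 3′ on the gene's strand, from RefSeq (GRCm38.p6), with CpG pairs in capitals: Lars2 at chr9:123366847-123366926, Iars2 at chr1:185329402-185329481 on the minus strand, Wars2 at chr3:99141010-99141089 and Fars2 at chr13:36117563-36117642.
Lars2: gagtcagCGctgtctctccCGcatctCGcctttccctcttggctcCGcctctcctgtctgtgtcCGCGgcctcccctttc
Iars2: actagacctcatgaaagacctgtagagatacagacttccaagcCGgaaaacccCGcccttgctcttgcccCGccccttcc
Wars2: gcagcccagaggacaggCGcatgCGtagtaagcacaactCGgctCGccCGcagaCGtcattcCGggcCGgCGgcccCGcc
Fars2: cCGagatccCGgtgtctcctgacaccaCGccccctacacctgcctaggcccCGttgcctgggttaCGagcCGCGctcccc

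Neither motif searched was found in these 4 promoters, which tells little, as both are rare. In the window of 300 bases (250 before the start and 50 after it), Lars2 held 18 CpG pairs, Iars2 15, Wars2 20 and Fars2 28, against a median of 7 over 32851 mouse promoter windows. Such richness was general in the set: 25 of the 26 members with a window exceeded 7, the range was 7 to 36 and the median 18.5. None of the 4 windows held CACGTG (the E-box) or TGATGNAA (the core of the amino acid response element to which Atf4 binds), searched on both strands. Over all windows, 7.15% held the E-box and 3.97% the core.

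Lars2, which charges mitochondrial tRNA with leucine, showed the largest change of the set. Its log2 level was 8.27, 8.42 and 8.02 for WT replicates 1, 3 and 5, against 5.54, 5.17 and 5.58 for KO replicates 1, 3 and 5. The highest KO-labelled array, at 5.58, lay far below the lowest WT-labelled array, at 8.02, and all arrays stood above the control median of 4.23. The means were 8.24 ± 0.203 and 5.43 ± 0.222 (SD, n = 3), a 6.996-fold difference (log2 fold change -2.81, SE 0.149, adjusted p = 3.00e-05 by limma). This value rests on 1 probe set.

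The isoleucine and tryptophan enzymes of mitochondria were lower to a similar degree. Iars2 read 9.70, 9.37 and 9.62 on WT-labelled arrays, against 8.92, 8.65 and 8.65 on KO-labelled ones (log2 fold change -0.82, SE 0.121, adjusted p = 0.00211). Wars2 read 7.37, 7.24 and 7.06 against 6.27, 6.38 and 6.59 (log2 fold change -0.81, SE 0.119, adjusted p = 0.00202). Neither gene had overlapping groups, and each kept its call when any array was left out. Values of Iars2, Wars2, Fars2 and Vars2 on every array were added after they had been seen.

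Fars2, the mitochondrial phenylalanine enzyme, was the least firm of the 4. It read 7.69, 7.97 and 7.90 on WT-labelled arrays, against 7.48, 7.01 and 7.46 on KO-labelled ones (log2 fold change -0.54, SE 0.152, adjusted p = 0.0304), with no overlap, although WT replicate 1 lay near KO replicates 1 and 5. The adjusted p was 0.0975 without WT replicate 3 and 0.0817 without WT replicate 5, and ranged from 0.0182 to 0.0975 over all alternatives. Its only probe set is of the x_at kind, in which probes may match other transcripts too. Vars2, the valine enzyme, read 7.05, 6.88 and 7.08 against 7.09, 6.71 and 7.04 (log2 fold change -0.05, SE 0.122, adjusted p = 0.790), and its groups overlapped.

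Mitochondrial enzymes for the remaining amino acids numbered 10, of which 8 were higher, against 22.6% of all genes, and Mars2 and Nars2 were not called. Their log2 fold changes had a median of 0.77. Sars2, the serine enzyme, read 8.40, 8.01 and 8.51 on WT-labelled arrays, against 9.78, 9.05 and 9.67 on KO-labelled ones. Replicate 3 was the lowest array under both labels, yet the groups did not overlap. The difference was 2.29-fold (log2 fold change 1.19, SE 0.224, adjusted p = 0.00583).

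Rars2 and Ears2 were about as far apart, with less spread. Rars2, the arginine enzyme, read 9.28, 9.05 and 9.09 against 10.05, 10.21 and 10.26, a 2.04-fold difference (log2 fold change 1.03, SE 0.0949, adjusted p = 0.000272). Ears2, the glutamate enzyme, read 7.27, 7.10 and 7.04 against 8.10, 7.90 and 8.32 (log2 fold change 0.97, SE 0.125, adjusted p = 0.00116). In both, the lowest KO-labelled array exceeded the highest WT-labelled array by more than the range within either label.

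Hars2 and Cars2, the histidine and cysteine enzymes, had nearly equal fold changes. Hars2 read 6.39, 6.19 and 6.28 against 7.11, 7.20 and 7.15 (log2 fold change 0.86, SE 0.0770, adjusted p = 0.000238). Cars2 read 8.66, 8.54 and 8.87 against 9.70, 9.35 and 9.56 (log2 fold change 0.85, SE 0.124, adjusted p = 0.00202). Neither pair of groups overlapped.

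Aars2 (alanine), Pars2 (proline) and Tars2 (threonine) completed the genes that were higher. Their log2 fold changes were 0.70 (SE 0.117, adjusted p = 0.00370), 0.66 (SE 0.0655, adjusted p = 0.000374) and 0.41 (SE 0.101, adjusted p = 0.0179). Tars2, whose only probe set is also of the x_at kind, lost its call without WT replicate 3, WT replicate 5, KO replicate 1 or KO replicate 5, where the adjusted p lay between 0.0563 and 0.0616. Over all alternatives its range was 0.0125 to 0.0616. Nars2 (asparagine) had a log2 fold change of 0.22 (SE 0.252, adjusted p = 0.565). Mars2 (methionine) had one of -0.15 (SE 0.121, adjusted p = 0.383), with means of 4.14 and 3.99 that lay below the control median of 4.23. Without WT replicate 5 its adjusted p was 0.0433, within 0.0433 to 0.729 over all alternatives.

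**Figure D2:**
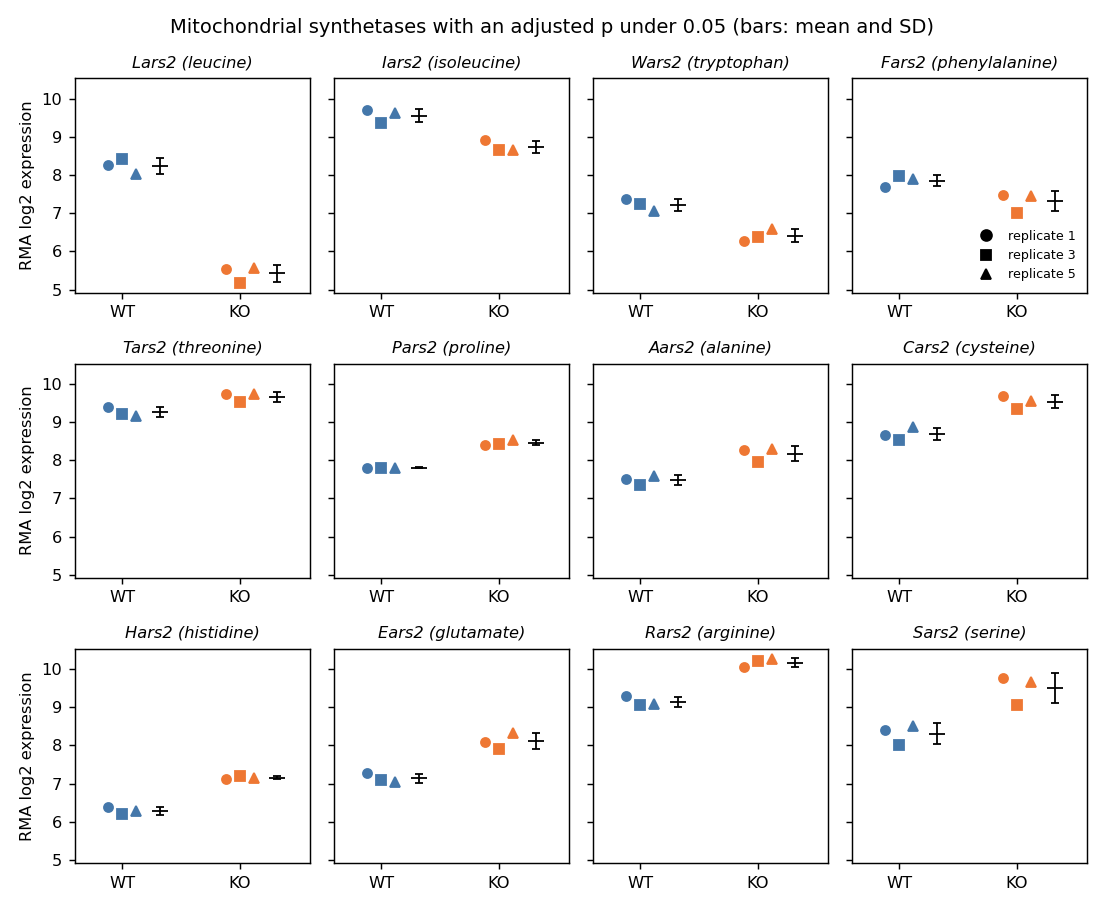
RMA log2 expression on each array for the 12 mitochondrial synthetases with an adjusted p under 0.05, ordered by fold change, with symbols for replicates and black bars for the mean and SD of each label. The WT-labelled and KO-labelled arrays do not overlap in any panel, with the KO-labelled arrays lower in 4 panels and higher in 8.

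The cytosolic enzymes that were higher on the KO-labelled arrays were Wars, Farsb, Aars, Kars and Yars, and Sars was lower. The 17 log2 fold changes had a median of 0.30. Wars, the tryptophan enzyme, read 9.39, 8.96 and 9.40 on WT-labelled arrays, against 10.26, 9.75 and 10.21 on KO-labelled ones (log2 fold change 0.82, SE 0.182, adjusted p = 0.0114). Farsb, the beta subunit of the phenylalanine enzyme, read 8.42, 8.32 and 8.37 against 8.93, 9.19 and 9.31 (log2 fold change 0.78, SE 0.110, adjusted p = 0.00173). Both were apart on every array and kept their calls when any array was left out.

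Kars and Yars had smaller differences. Kars, the lysine enzyme, read 10.30, 10.13 and 10.18 against 11.10, 10.71 and 10.70 (log2 fold change 0.63, SE 0.125, adjusted p = 0.00730). Yars, the tyrosine enzyme, read 8.47, 8.01 and 8.15 against 8.63, 8.62 and 8.99 (log2 fold change 0.54, SE 0.154, adjusted p = 0.0311). Neither overlapped, but WT replicate 1 lay close below the KO-labelled Yars values. Yars lost its call without WT replicate 3, WT replicate 5, KO replicate 1 or KO replicate 5 (adjusted p from 0.0515 to 0.0945), and its adjusted p ranged from 0.0163 to 0.110 over all alternatives.

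Sars, the cytosolic serine enzyme, was the only cytosolic gene that was lower. It read 11.40, 11.29 and 11.40 on WT-labelled arrays, against 10.84, 10.93 and 11.15 on KO-labelled ones (log2 fold change -0.39, SE 0.0985, adjusted p = 0.0196). The groups did not overlap, with KO replicate 5 nearest to the WT-labelled values. The call was lost without WT replicate 1, WT replicate 5, KO replicate 1 or KO replicate 3 (adjusted p from 0.0558 to 0.0631), and the range over all alternatives was 0.00881 to 0.0848.

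Aars, the alanine enzyme, read 9.48, 9.28 and 9.67 on WT-labelled arrays, against 10.37, 9.85 and 10.35 on KO-labelled ones (log2 fold change 0.71, SE 0.173, adjusted p = 0.0168). KO replicate 3 was the lowest of its group and still above every WT-labelled array. Without WT replicate 3, KO replicate 1 or KO replicate 5 the adjusted p lay between 0.0559 and 0.0583, and its range over all alternatives was 0.00144 to 0.0583. Gars, the glycine enzyme, had a log2 fold change of -0.07 (SE 0.0645, adjusted p = 0.477), with all arrays between 11.88 and 12.03. Both promoters hold the amino acid response element core and are shown for that reason, with this core and any E-box in capitals, from RefSeq (GRCm38.p6) on the plus strand, Aars at chr8:111033676-111033757 and Gars at chr6:55037941-55038000.
Aars: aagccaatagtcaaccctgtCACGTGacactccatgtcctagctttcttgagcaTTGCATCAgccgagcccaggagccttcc
Gars: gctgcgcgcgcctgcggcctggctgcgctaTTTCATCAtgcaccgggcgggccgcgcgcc

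In these promoters the E-box, CACGTG, begins at base -146 of Aars, and the core, read on the opposite strand, begins at base -112 of Aars and base -30 of Gars. Aars held another core on the opposite strand at base 10, after the start and outside the stretch shown. The core TGATGNAA stood in the windows of 4 of the 26 members with a window, Aars, Gars, Iars and Yars, and in 3.97% of all 32851 windows. CACGTG also stood in 4, Aars, Farsb, Iars and Ears2, and in 7.15% of all windows. Of the genes with the core, Aars and Yars were higher and Gars and Iars were not called. A letter match is not a bound site.

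Among the 7 cytosolic genes for branched-chain and aromatic amino acids, 3 (Wars, Farsb, Yars) were higher and none was lower. Over all genes 22.6% were higher and 19.2% lower, and the count of 3 was not tested against these shares. The median of the 7 genes was 0.54 in log2 fold change. The 3 branched-chain enzymes were not called. Lars, for leucine, read 10.62, 10.41 and 10.71 against 10.85, 10.72 and 11.02 (log2 fold change 0.28, SE 0.116, adjusted p = 0.103), and its groups met without overlapping, KO replicate 3 lying just above WT replicate 5. Iars, for isoleucine, read 11.91, 11.83 and 11.9998 against 12.04, 11.90 and 12.04 (log2 fold change 0.08, SE 0.0792, adjusted p = 0.502). The groups of Iars overlapped.

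Vars, for valine, read 10.39, 9.86 and 10.19 against 10.16, 9.79 and 10.11 (log2 fold change -0.13, SE 0.164, adjusted p = 0.608), and replicate 3 was lowest under both labels. Farsa, the alpha subunit of the phenylalanine enzyme, read 7.75, 7.01 and 6.82 against 8.09, 7.49 and 7.94 on its most variable probe set (log2 fold change 0.64, SE 0.272, adjusted p = 0.109). WT replicate 1 exceeded KO replicate 3 there, and without WT replicate 1 the adjusted p was 0.0164. The remaining cytosolic genes, none of them called, were Qars (glutamine) at 0.50 (SE 0.208), Hars (histidine) at 0.33 (SE 0.163), Eprs (glutamate and proline) at 0.30 (SE 0.156), Mars (methionine) at 0.18 (SE 0.127), Rars (arginine) at 0.04 (SE 0.178) and Nars (asparagine) at 0.04 (SE 0.108) in log2 fold change. Without KO replicate 3, Eprs was called (adjusted p = 0.0240, within 0.0157 to 0.866 over all alternatives), and so was Qars (adjusted p = 0.0371).

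In the cytosol, a group of synthetases and the scaffold proteins form the multi-synthetase complex. Of 9 measured members of the complex, Kars alone was called, and the median was 0.26 in log2 fold change. Outside it, 4 of 10 cytosolic genes were higher and Sars was lower, with a median of 0.43, against 22.6% higher and 19.2% lower over all genes. With the replicate 3 arrays set apart by a covariate, 5 of 9 in the complex and 5 of 10 outside it were higher. That fit called 8080 of all genes, against 7160 without the covariate. It counted Eprs by a dim probe set, with means of 4.64 and 4.95. With the replicate number as a block, 4 of 9 in the complex, again with Eprs by that probe set, and 6 of 10 outside it were higher. On the brightest probe set of each gene, 2 of 9 and 5 of 10 were higher. Over all genes these 2 alternatives called 7878 and 6751. The counts thus depended on the fit, and the difference between genes inside and outside the complex was not tested.

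The scaffold protein Aimp1 read 10.01, 9.80 and 9.62 against 9.99, 10.11 and 10.10 (log2 fold change 0.26, SE 0.110, adjusted p = 0.114), and KO replicate 1 lay just below WT replicate 1. Without WT replicate 1 its adjusted p was 0.0355, within 0.0355 to 0.344 over all alternatives. Aimp2 read 9.83, 9.37 and 9.57 against 9.65, 9.33 and 9.68 (log2 fold change -0.04, SE 0.149, adjusted p = 0.887), and its groups overlapped. By structural family, 5 of 16 class I enzymes were higher and 3 lower, and 8 of 15 class II enzymes were higher and 2 lower, against 22.6% and 19.2% of all genes. The class I shares, 31.2% and 18.8%, were near those of all genes, and with the replicate 3 covariate 8 class I and 9 class II enzymes were higher. That fit called 8080 of all genes, against 7160 without the covariate. With the replicate number as a block, 7 class I and 10 class II enzymes were higher, with 7878 of all genes called. On the brightest probe sets 6 and 9 were higher, with 6751 of all genes called. Eprs holds a domain of each class and was left out of the class counts.

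For 13 amino acids both the cytosolic and the mitochondrial enzyme were measured, which gave 14 pairs because the phenylalanine enzyme of the cytosol has 2 subunits and Eprs pairs with both Ears2 and Pars2. Over all genes 22.6% were higher and 19.2% lower, and the counts of pairs were not tested against these shares. Both genes of a pair were called in 4 pairs. In 3 of them the directions were opposite: Sars was lower and Sars2 higher, Wars was higher and Wars2 lower, and Farsb was higher and Fars2 lower. For alanine both were higher, with log2 fold changes of 0.71 for Aars and 0.70 for Aars2. These counts depended on the fit. With the replicate 3 arrays set apart by a covariate, both genes were called in 8 pairs, 4 in the same direction and 4 in opposite directions, since Eprs with Ears2, Eprs with Pars2 and Hars with Hars2 were then both higher and Lars was higher where Lars2 was lower. The Eprs pairs rest on a dim probe set, with means of 4.64 and 4.95 near the control median of 4.23. That fit called 8080 of all genes, against 7160 without the covariate. With the replicate number as a block, both were called in 7 pairs, 4 in the same direction and 3 in opposite directions. That fit called 7878 of all genes. On the brightest probe set of each gene, both were called in 5 pairs, 1 in the same direction and 4 in opposite directions. There Farsa, higher, joined with Fars2, lower, and 6751 of all genes were called. The serine and tryptophan pairs were opposite in all of these fits. The mitochondrial gene had the larger absolute change in 8 of the 14 pairs. The difference within a pair was not tested.

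**Figure D3:**
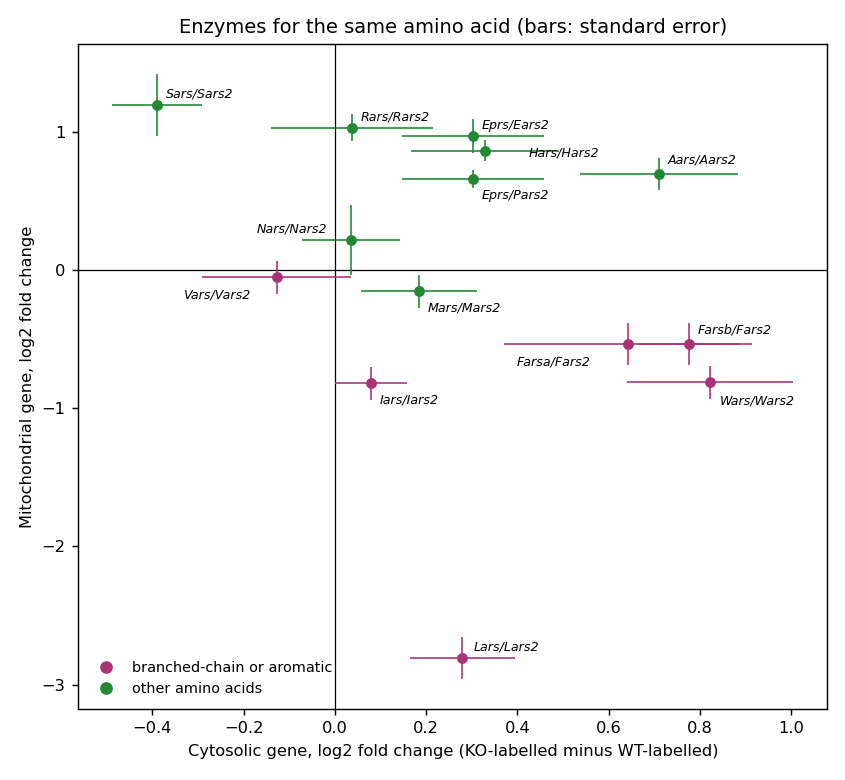
Log2 fold change (KO-labelled minus WT-labelled) of the cytosolic gene on the horizontal axis and of the mitochondrial gene for the same amino acid on the vertical axis, for 14 pairs, with standard errors as bars and the amino acid group as colour. The leucine pair lies lowest, at 0.28 for Lars and -2.81 for Lars2, and the serine pair lies at the upper left, at -0.39 for Sars and 1.19 for Sars2.

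The values above are those of the most variable probe set of each gene. As the SD was taken over all 6 arrays, this choice tends to favour probe sets with larger differences between the labels. The members had 60 probe sets, 17 members having 1 and 17 having several. Calls of single probe sets used p-values adjusted over all 45141 probe sets, which is stricter here than the adjustment over genes. Of the members with several, none had probe sets called in both directions, 15 had all of them of the same sign and 6 had every one called. All 3 probe sets of Wars were higher, at log2 fold changes of 0.77, 0.82 and 0.87. Both of Wars2 were lower, at -0.81 and -0.50, as were both of Iars2, at -0.82 and -0.39, and both of Sars, at -0.39 and -0.33. Both of Aars were higher, at 0.71 and 0.50, and both of Hars2, at 0.86 and 0.34.

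For some members the choice of probe set decided the call. The brightest Farsa probe set read 10.27, 9.99 and 10.12 on WT-labelled arrays, against 10.97, 10.81 and 10.90 on KO-labelled ones, which is 0.77 in log2 fold change (SE 0.0941, adjusted p = 0.00101 with every gene represented by its brightest probe set, within 0.00101 to 0.270 over all alternatives). It did not overlap between the labels, so that on it the alpha subunit, like Farsb, was higher. Qars on its brightest probe set had a log2 fold change of 0.31 (SE 0.0735, adjusted p = 0.0168, within 0.0155 to 0.269 over all alternatives). That probe set is of the x_at kind, in which probes may match other transcripts too. For Eprs the most variable probe set was dim, with means of 4.64 and 4.95, and the 3 brighter sets, at -0.02, 0.19 and 0.21, were not called. Ears2 had 2 of 4 probe sets called higher, at 0.97 and 0.48, while those at 0.27 and 0.26 were not called. Farsb had 2 of 3 called higher, at 0.78 and, on its brightest set, 0.38, while the set at 0.57 was not called. The other probe set of Cars2, with means of 4.46 and 4.63, was not called.

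**Figure D4:**
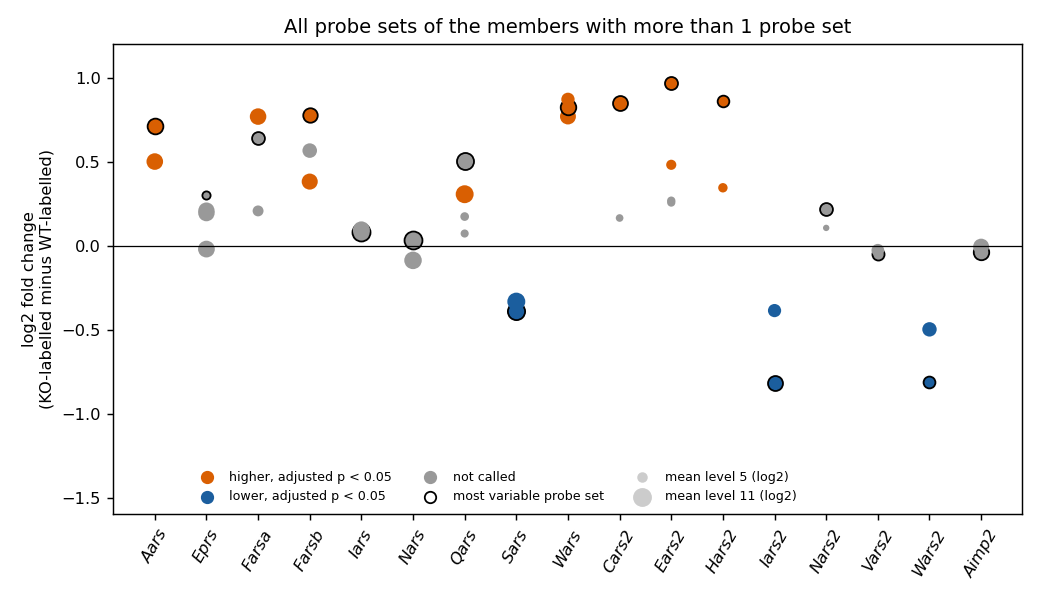
Log2 fold change (KO-labelled minus WT-labelled) of every probe set of the 17 members with several, sized by mean level and ringed where the probe set was the most variable. Colours give the call, with p-values adjusted over all 45141 probe sets. Called probe sets of 1 gene lie on the same side of 0 in every column.

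The arrays of replicate 3 differed from the others under both labels, with a mean over 9 hybridisation control probe sets that was lower by 1.16 log2 units (-1.16, replicate 3 minus the others). Of the 34 members, 16 were lowest on replicate 3 under both labels, and how many of all genes were so was not counted. Taken within replicate 3 and within replicates 1 and 5 apart, the KO-labelled minus WT-labelled difference had the same sign for 15 of the 16 uncalled members. The same count over all genes was not made. For the 18 called members and the uncalled Lars the groups did not overlap, which fixes the sign within any subset, so only the sizes of the difference are informative there. For Lars2 it was -3.24 within replicate 3 and -2.59 within replicates 1 and 5, and for Fars2 -0.97 and -0.32. With this split as a covariate in limma, 10 cytosolic genes were higher, against 5 without it, since Eprs, Hars, Lars, Mars and Qars were then called. Calls over all genes rose as well, from 7160 without the covariate to 8080 with it.

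Few other genes of tRNA charging were called. Of 13 measured accessory genes of 17 listed, 2 were higher (15.4%) and 2 lower (15.4%), below the 22.6% and 19.2% of all genes, and the median was 0.24 in log2 fold change. Prorsd1, a relative of the editing domain that clears misloaded prolyl-tRNA, was higher by 0.69 (SE 0.0728), and Pstk, the kinase that acts on seryl-tRNA in selenocysteine synthesis, by 0.64 (SE 0.102). Gatc, a subunit of the mitochondrial enzyme that turns glutamyl-tRNA into glutaminyl-tRNA, had a log2 fold change of -0.58 (SE 0.115), and Tarsl2, a threonyl-tRNA synthetase, one of -0.30 (SE 0.0686), both lower.

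Of 10 elongation factor genes, Gfm2, a mitochondrial factor of ribosome recycling, was higher by 1.03 (SE 0.135) and Eef1g, a subunit of the factor that recharges the cytosolic elongation factor with GTP, by 0.91 (SE 0.258). The 2 of 10 higher (20%) were near the 22.6% of all genes. None was lower, and the 10 log2 fold changes had a median of 0.15.

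The amino acid response list covered the program of Gcn2 and Atf4. It also held Eif2ak4, Gcn1 and Impact, which act at or upstream of Gcn2. Of its 14 measured genes 2 were higher (14.3%) and 3 lower (21.4%), close to or below the 22.6% and 19.2% of all genes. Impact, an inhibitor of Gcn2, was higher by 2.94 (SE 0.129) and Sesn2, a leucine sensor upstream of mTORC1, by 1.22 (SE 0.132). Phgdh and Psat1, enzymes of serine synthesis, were lower, at -1.38 (SE 0.245) and -0.60 (SE 0.151), and so was Eif2ak4, at -0.43 (SE 0.0977). Over the 14 genes the median was 0.07 in log2 fold change. Atf4 read 10.32, 10.26 and 10.74 on WT-labelled arrays, against 10.95, 10.61 and 10.97 on KO-labelled ones (log2 fold change 0.40, SE 0.162, adjusted p = 0.0972), and its groups overlapped.

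Of 10 cytosolic synthetase genes listed from background knowledge as regulated by Atf4, 3 were higher (Aars, Wars, Yars) and Sars was lower, against 22.6% higher and 19.2% lower over all genes, and their median was 0.23 in log2 fold change. Of the 7 not so listed, 2 (Farsb, Kars) were higher and none was lower, with a median of 0.50. On the brightest probe sets 3 of 10 and 4 of 7 were higher, with 6751 of all genes called. With the replicate number as a block, 5 of 10 and 5 of 7 were higher, with 7878 of all genes called. With the replicate 3 covariate, which added Eprs, Lars and Mars to the former and Hars and Qars to the latter, 6 of 10 and 4 of 7 were higher. That fit called 8080 of all genes, against 7160 without the covariate.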

How the data were processed

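RNA of 3 WT-labelled and 3 KO-labelled cell samples was hybridised to Affymetrix mouse arrays. The authors deposited log2 expression values, 1 per probe set, from RMA in the affyPLM package. No array intensities or detection calls were used, and precision depends on the number of arrays. The members and lists were chosen with earlier results of these data known. Of 45141 probe sets, 28898 carried 1 gene symbol of the platform annotation, 551 several and 15692 none, and only the first were named.

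The difference between KO-labelled and WT-labelled arrays was fitted over all probe sets with limma 3.58.1 (lmFit, eBayes) in R 4.3.3. The probe set with the largest SD stood for its gene, p-values were adjusted by Benjamini-Hochberg over 17097 genes, and calls were made at an adjusted p under 0.05. No covariate was used, since the scan batch of the study's model is not stated for these arrays. An exact permutation test of 3 against 3 arrays cannot go below p = 0.1 and was not used for single genes. The calculation was tested on simulated data. Every measured member is named, and values on all arrays are given for the 6 called members of largest change in each compartment, the cytosolic enzymes for branched-chain and aromatic amino acids and the scaffold proteins. Alternatives were a replicate block, the hybridisation split, other probe set choices, normalisations and variance settings, a fold limit, and leaving out each array. Promoter windows came from RefSeq (GRCm38.p6), with Python 3.11.15 and matplotlib 3.10.9 for searches and plots.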

Additional observations from a re-analysis of the deposited data

How the results depend on the processing

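The counts of mitochondrial genes held within 7 to 8 higher and 3 to 4 lower under every alternative except a fold limit. The cytosolic counts were less stable. With a change over 2-fold required, 0 cytosolic genes were higher and 0 lower, and 2 mitochondrial genes were higher and 1 lower. With a replicate block, 10 cytosolic genes were higher (Eprs, Farsa, Hars, Lars and Qars were added) and Fars2 lost its call, at an adjusted p of 0.0564. The labels do not say that a number marks a shared culture, and the deviations of same-numbered arrays correlated at 0.04, 0.58 and 0.15 for replicates 1, 3 and 5, so the numbers were not taken to pair the samples, although for no other member did the replicate block end a call. With replicate 3 set apart by a covariate, a split taken from its control probe sets and not from the labels, 10 cytosolic genes were higher. On the arrays of replicates 1 and 5 alone, 0 cytosolic genes were lower, and Fars2, Sars and Yars lost their calls. Leaving out 1 array at a time gave 3 to 7 cytosolic genes higher and 0 to 1 lower. The count of 3 came without WT replicate 3, KO replicate 1 or KO replicate 5, and the count of 0 without WT replicate 1, WT replicate 5, KO replicate 1 or KO replicate 3.

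The sign turned only for genes that were not called. Vars2 was at 0.00431 on the arrays of replicates 1 and 5, Eprs at -0.0209 on its brightest probe set, Nars at -0.0265 as the mean of its probe sets, and Nars at -0.0413 and Rars at -0.0390 after median centring, which moved the median of all genes from 0.02 to -0.06. Leaving out 1 array gave -0.144 to 0.0842 for Aimp2, -0.134 to 0.154 for Rars, -0.00661 to 0.367 for Nars2, -0.124 to 0.0663 for Vars2 and -0.0625 to 0.123 for Nars. Beside these, Fars2 lost its call after quantile normalisation (adjusted p = 0.0507) and Yars after median centring (adjusted p = 0.0549). Over all genes, 7160 were called, and 6027 to 8080 under the alternatives without a fold limit. The dim probe sets of Mars2 and Eprs, near the nonspecific controls, limit what can be said of those genes.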
